A study of Mus musculus with 9 samples.

Results

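Genes that carry cells through mitosis were followed in keratinocytes of the neonatal mouse epidermis. The group is a list of 40 named genes of the G2 phase, the kinetochore and the spindle, taken by gene symbol from a table of 24532 genes, and all 40 were present and passed the low-count filter that left 14507 genes. RNA came from skin of C57BL/6 mice on postnatal days 1, 7 and 14, and each age had 3 libraries. No treatment and no genetic change separates the groups. Cells were sorted as viable (propidium iodide negative) and negative for the leukocyte marker CD45.2, a gate that takes no keratinocyte marker, and the labels do not state whether each library is another animal, so p-values measure the spread between these libraries only. Total counts ran from 50670191 to 62970768 per library, and the members had between 402 and 28622 counts in any library.

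Basal keratinocytes are the dividing cells of the epidermis, and their daughters stop dividing as they move up into the spinous and granular layers. Transcripts of mitosis genes build up in G2 and are low in cells outside the cycle. CDK1 with a B-type cyclin drives entry into mitosis, kinetochores attach chromosomes to spindle microtubules, the spindle checkpoint holds anaphase back until they are attached, and the anaphase-promoting complex then has cyclin and securin destroyed so that the chromosomes part and cytokinesis can follow. In bulk RNA, fewer cycling cells and less of a transcript per cycling cell cannot be told apart.

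The sorted cells carried the markers of keratinocytes. The 9 basal markers summed to 45782 to 48424 CPM (library-scaled counts, with TMM factors) on day 1, and all were detected. Leukocyte markers summed to 1.72 to 2.93 CPM at day 1 and 17.3 to 18.97 CPM at day 14, with Cd207 and Cd3e at 0 counts at day 1, and Ptprc, which encodes CD45, reached no more than 9 counts. The day 7 libraries held no Xist counts, and the day 14 libraries held none of the Y-linked Ddx3y, whereas the day 1 libraries held both transcripts. Mean Xist was 1352 CPM on day 1, 0 on day 7 and 2534 on day 14, and mean Ddx3y was 41.8, 105 and 0 CPM. Sex-linked transcripts therefore differ between the days along with age. Sex and age cannot be told apart between day 7 and day 14, and the part of sex in the changes was not tested. The columns taken as day 1 carry D0 in their headers, which matches no title exactly. The day 7 columns have another header style, and a separate preparation of those libraries cannot be told apart from age.

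Most of the mitosis genes did not pass the test for a change over the first week, and nearly all fell in the second. From day 7 to day 14, 38 of the 40 genes fell, 1 rose and 1 did not pass the test, at a background of 35.1% of all tested genes lower and 32.5% higher (edgeR, adjusted p under 0.05). The median log2 fold change of the 40 genes was -1.01, beside -0.03 over all tested genes, and 32 of them lay between -1.4 and -0.7. In the first week 12 genes fell, 3 rose and 25 did not pass the test, at backgrounds of 24.0% and 25.5%, so that the count of falls was near its background and the count of rises below it. Without day 7 library 1 these counts were 6 falls and 7 rises, beside 3103 falls and 3376 rises among 14791 genes. With all libraries the median of the first week was -0.07, beside -0.001 for all genes. Over the whole span 36 genes were lower and 2 higher at day 14 than at day 1 (backgrounds 38.4% and 35.5%), a comparison that shares its libraries with the other ones. In the second week 37 genes had all day 14 libraries below all day 7 libraries and 1 above (backgrounds 37.4% and 35.3%). For day 7 against day 1 these counts were 14 and 3 (backgrounds 30.0% and 30.4%), and for day 14 against day 1 36 and 3 (backgrounds 40.5% and 36.9%). Summed over the 40 genes, the level was 3170.5 ± 83.5 CPM on day 1, 3083 ± 171 on day 7 and 1728 ± 51.5 on day 14 (SD, n = 3).

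**Figure D1:**
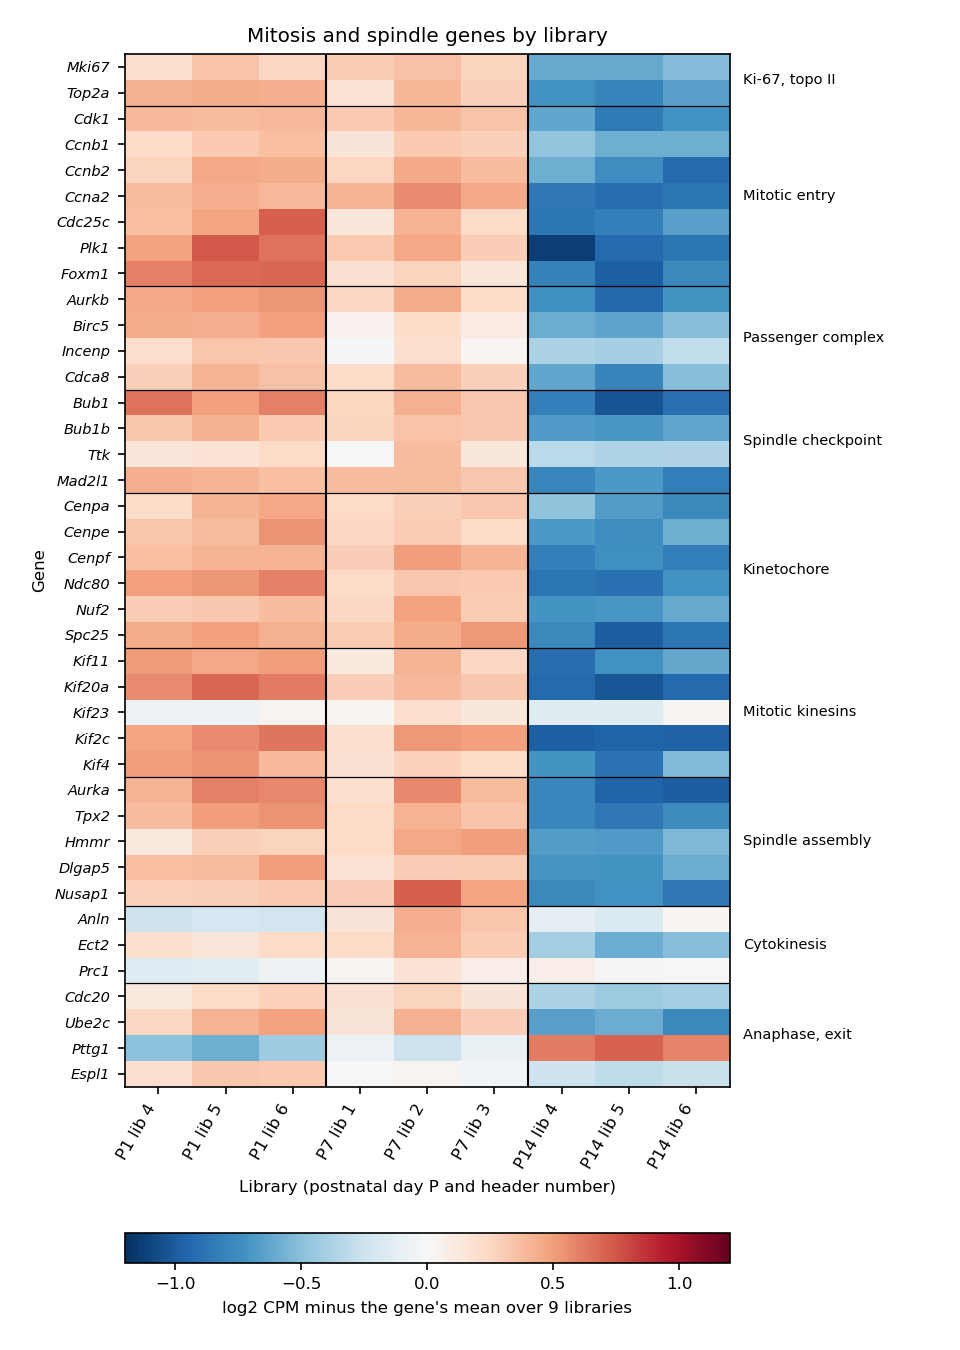
Level of each of the 40 genes in each of the 9 libraries, as log2 CPM minus the gene's mean over the libraries, with genes grouped by role. The 3 day 14 libraries are below the gene's mean for nearly all genes, while the row of Pttg1 runs the other way and those of Kif23 and Prc1 are nearly flat.

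Whether the second step differed from the first was tested gene by gene in the same model. The second step was the more negative for 37 of 40 genes and the more positive for 1 (background 27.6% and 24.2% of all genes), with a median difference of -0.90 on the log2 scale. A set of 12 genes fell in both steps (background 10.2%), or 6 without day 7 library 1, 25 were called in neither direction in the first step and fell in the second (background 17.7%), and 1, Anln, rose and then fell (background 7.24%). The remaining 2 were Prc1 and Pttg1. Incenp and Espl1 were the members whose steps did not differ past the threshold (differences -0.21 and 0.006, adjusted p = 0.119 and 0.957).

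**Figure D2:**
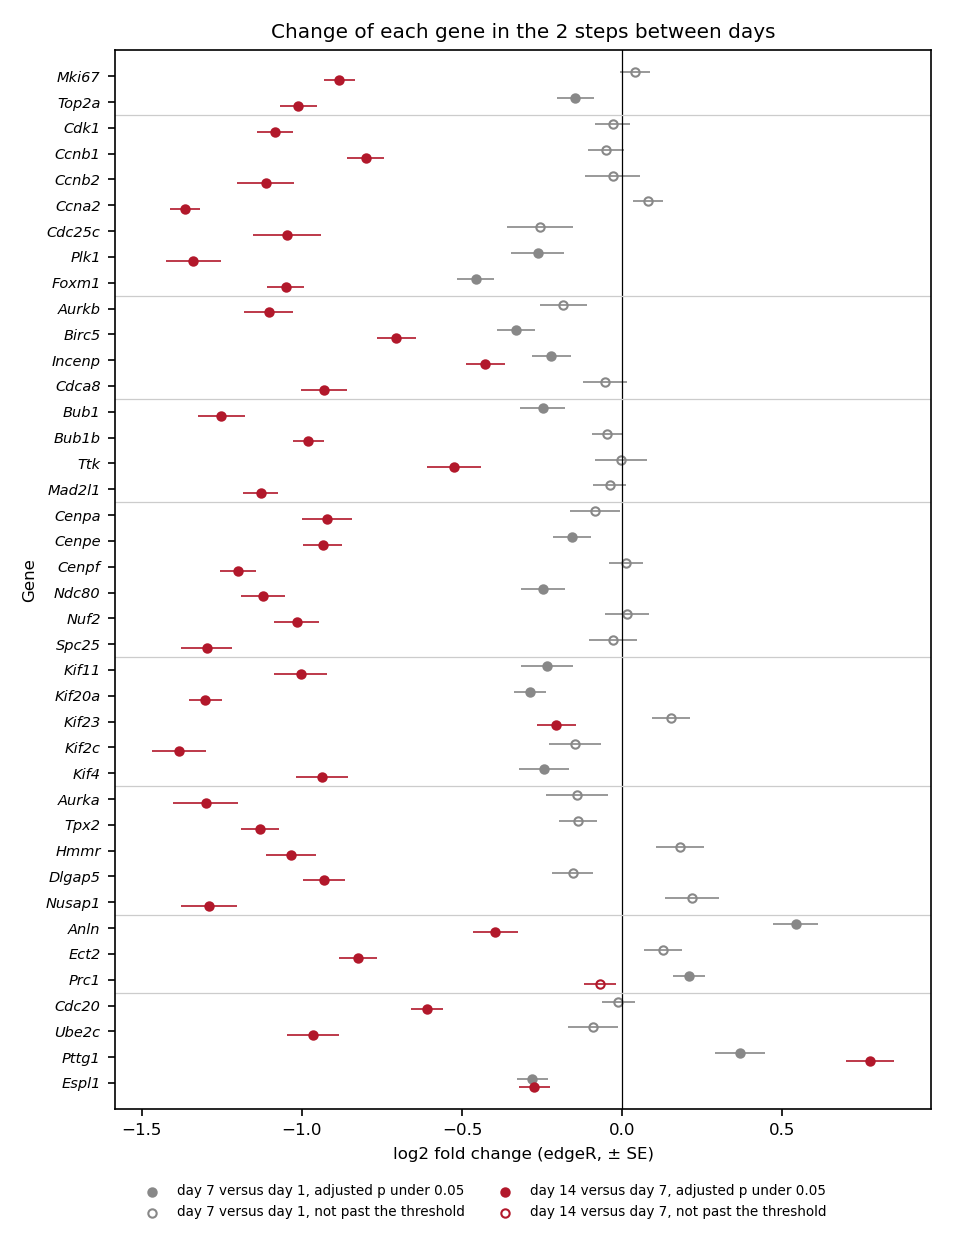
Log2 fold change (± SE, edgeR) of each gene from day 1 to day 7 in grey and from day 7 to day 14 in red, with filled points for an adjusted p under 0.05. Most red points lie between -1.4 and -0.7, and Pttg1 is the one gene with both points to the right of 0 that passed in both steps.

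Mki67, the gene of the Ki-67 antigen that coats mitotic chromosomes and marks cycling cells (chromosome 7, 135689784 to 135716450 in mm10), was at 420.1, 460.5 and 429.5 CPM on day 1, 449, 463 and 435 on day 7 and 239, 239 and 253 on day 14. The day 1 and day 7 libraries overlapped, and each day 14 library was below all of them (day 14 versus day 7, log2 fold change -0.88 ± 0.05, adjusted p = 1.4e-08). Top2a, the topoisomerase that untangles sister chromatids (chromosome 11, 98992947 to 99024199), was at 370.0, 374 and 374 CPM on day 1, 311, 362 and 337 on day 7 and 167, 159 and 176 on day 14. All day 7 libraries were below day 1 and all day 14 libraries below both. The second week gave a log2 fold change of -1.01 ± 0.06 (adjusted p = 1.95e-08), and the small difference of the first week was at the edge of the threshold (adjusted p = 0.0496), one that 7 of the 9 fits with a library left out did not call.

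All 7 genes of mitotic entry fell in the second week, with log2 fold changes from -1.36 to -0.80. For this and each role group below, the backgrounds of that week were 35.1% of all tested genes lower and 32.5% higher. Cdk1, the kinase that starts mitosis (chromosome 10, 69335146 to 69352912), was at 77.4, 76.2 and 77.1 CPM on day 1, 73.1, 77.8 and 74.9 on day 7 and 38.3, 32.8 and 35.5 on day 14. Days 1 and 7 overlapped and day 14 lay below both in each library (log2 fold change -1.08 ± 0.06, adjusted p = 9.53e-09). Ccnb1, its B-type cyclin, had the smallest fall of the 7, at 70.9, 74.8 and 77.3 CPM on day 1, 67.05, 74.99 and 73.5 on day 7 and 43.4, 40.2 and 40.1 on day 14 (-0.80 ± 0.06, adjusted p = 1.42e-07). Ccna2, cyclin A, had the largest, at 104, 108 and 105 CPM on day 1, 107, 118 and 110.0 on day 7 and 44.3, 42.4 and 43.6 on day 14 (-1.36 ± 0.05, adjusted p = 4.24e-10). Its exons overlap those of Exosc9 on the other strand, which also fell (-0.42 log2), from 27.1 to 20.3 CPM.

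Plk1, the polo kinase of mitotic entry and spindle formation, went down in both steps, with 40.3, 48.1 and 45.3 CPM on day 1, 35.9, 39.9 and 35.5 on day 7 and 13.2, 15.1 and 15.7 on day 14. No library of a later day reached those of an earlier one. The second fall (-1.34 ± 0.09, adjusted p = 5.14e-08) was larger than the first (-0.26 ± 0.08, adjusted p = 0.0177), with a tested difference between them of -1.07 ± 0.14 (adjusted p = 6.8e-05). The first did not hold when day 1 library 5, day 1 library 6, day 7 library 1 or day 7 library 3 was left out. Foxm1, a transcription factor of G2 and mitosis genes, had the largest fall of all members from day 1 to day 7, at 107, 113 and 113 CPM on day 1, 79.9, 84.6 and 77.8 on day 7 and 40.1, 35.8 and 41.1 on day 14. That fall (-0.46 ± 0.06, adjusted p = 3.33e-05) held with each library left out, and a further one followed (-1.05 ± 0.06, adjusted p = 1.52e-08). Ccnb2, another B-type cyclin, and Cdc25c, a phosphatase that activates Cdk1, did not pass the test in the first week and fell in the second (-1.11 and -1.05). The first step of Cdc25c missed narrowly (-0.26 ± 0.10, adjusted p = 0.0544). It was called as lower in 5 alternatives, among them RLE size factors, limma-voom and the fit without day 7 library 2.

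Many promoters of mitosis genes carry a cell cycle genes homology region (CHR), a short element near the start of transcription through which the DREAM complex keeps them silent in resting cells and through which B-Myb, MuvB and FoxM1 turn them on in G2. CCAAT boxes bound by NF-Y often lie just before it. RefSeq promoter windows (GRCm38.p6, the assembly also called mm10) ran from 250 bases before to 50 after the start. They were searched on both strands for the CHR letters TTTGAA and TTCGAA and for CCAAT. Windows of 32 of the 40 members were searched. TTTGAA or TTCGAA stood in 25 of 32 (78.1%), beside 21.7% of the 27025 genes whose windows were searched. Within 50 bases of the start it stood in 23 of 32, beside 6.12% of all. TTTGAA alone gave 24 members and 20.2% of all genes, and TTCGAA gave 3 members and 1.8%, the latter reading alike on both strands. CCAAT stood in 24 of 32 members, beside 41.1% of all genes, and both kinds together in 22, beside 8.61%. GGCGG, the letters of the CDE element that can stand before a CHR, was in 29 of 32 members and 51.2% of all genes. These are letter matches, given as a description of the listed genes. A relation of the matches to the changes between days was not tested.

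Windows of 4 members are printed 5′ to 3′ along the gene, in lower case with CHR letters and CCAAT boxes (either strand, ATTGG on the reverse) in capitals. Cdk1 and Plk1 are shown as genes that fell, Bub1 for the TTCGAA form and Prc1, by the first of its 2 RefSeq starts, as a gene not called in the second week.
Cdk1 (chr10:69352863-69353162, minus strand): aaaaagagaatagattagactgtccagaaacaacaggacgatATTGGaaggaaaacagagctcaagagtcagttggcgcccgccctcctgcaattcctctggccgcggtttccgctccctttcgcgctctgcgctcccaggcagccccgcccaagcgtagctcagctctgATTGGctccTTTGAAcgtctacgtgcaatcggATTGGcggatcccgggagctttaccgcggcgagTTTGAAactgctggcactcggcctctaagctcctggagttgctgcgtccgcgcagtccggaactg
Plk1 (chr7:122159185-122159484, plus strand): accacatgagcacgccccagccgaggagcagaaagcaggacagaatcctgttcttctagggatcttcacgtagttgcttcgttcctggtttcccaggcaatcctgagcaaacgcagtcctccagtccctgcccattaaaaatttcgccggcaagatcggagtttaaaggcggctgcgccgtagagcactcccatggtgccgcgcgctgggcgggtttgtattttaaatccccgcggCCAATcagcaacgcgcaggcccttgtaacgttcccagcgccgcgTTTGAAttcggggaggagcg
Bub1 (chr2:127831810-127832109, minus strand): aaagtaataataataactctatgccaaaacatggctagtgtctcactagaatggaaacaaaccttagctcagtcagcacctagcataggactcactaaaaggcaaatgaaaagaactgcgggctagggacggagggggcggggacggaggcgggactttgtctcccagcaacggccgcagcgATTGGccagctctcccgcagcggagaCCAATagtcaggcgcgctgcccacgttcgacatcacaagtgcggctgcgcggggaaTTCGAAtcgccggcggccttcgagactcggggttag
Prc1 (chr7:80294201-80294500, plus strand): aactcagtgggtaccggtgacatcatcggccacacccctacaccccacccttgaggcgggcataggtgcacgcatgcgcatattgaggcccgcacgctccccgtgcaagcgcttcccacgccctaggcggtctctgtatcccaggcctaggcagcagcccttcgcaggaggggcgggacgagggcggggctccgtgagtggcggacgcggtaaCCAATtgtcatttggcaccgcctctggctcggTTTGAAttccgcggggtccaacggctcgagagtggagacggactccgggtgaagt
Counted from the start, the CHR letters begin at base -15 in Cdk1 (a further match is at -71), at 31 in Plk1, at 15 in Bub1 and at -5 in Prc1, and the nearest CCAAT at -48, -14, -42 and -37. A match was thus present in Prc1, which was not called in the second week, as in Kif23, which fell little. Pttg1, the gene that rose, had neither CHR letters nor CCAAT in its window. The start in that window lies 1482 bases inside the gene as located here, so the gene's own 5′ end was not searched. The same holds for Kif2c, by 3852 bases, for Aurka, by 316, and for Ect2, by 375 and 399 at its 2 starts. These genes are kept in the counts above, and Aurka, Ect2 and Kif2c had CHR letters in their windows. Ccnb1, Birc5, Cenpe, Mad2l1, Nuf2 and Nusap1, which fell in the second week, had no CHR letters in their windows, as Pttg1 had none. Aurkb, Ccna2, Cdc25c, Dlgap5, Foxm1, Incenp, Kif20a and Tpx2 were not searched.

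**Figure D3:**
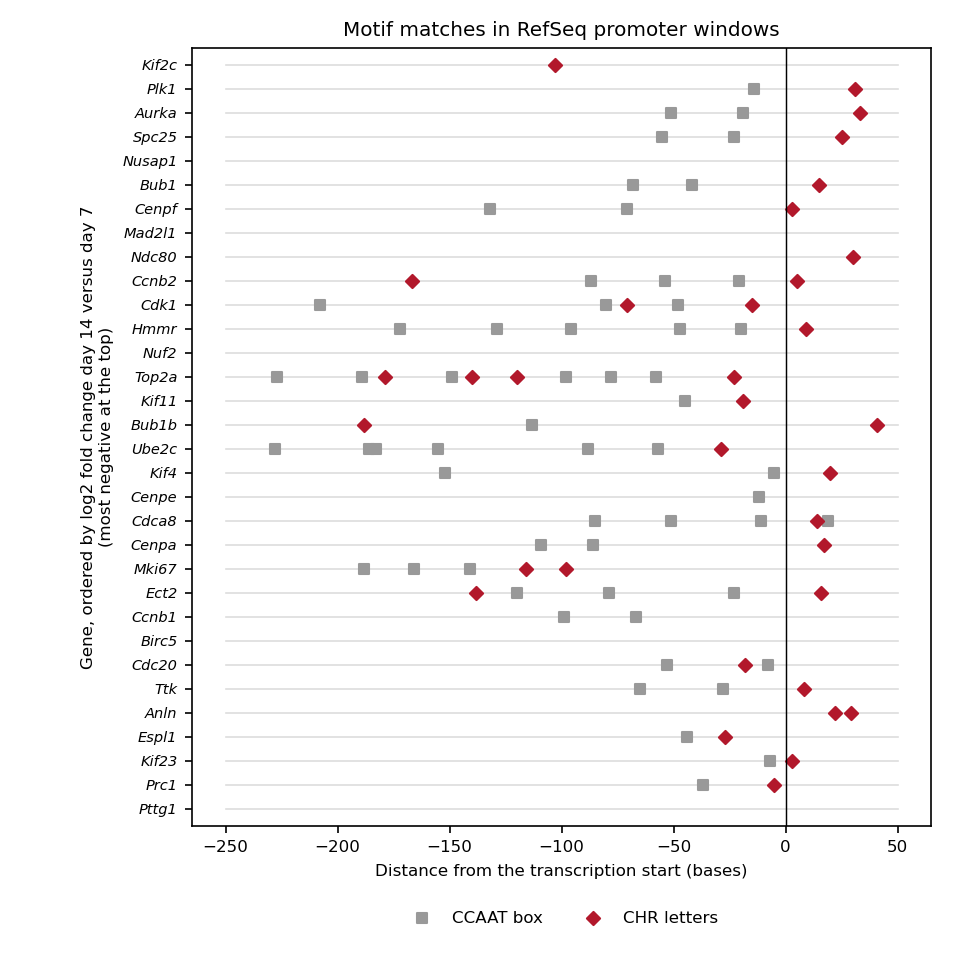
Matches of the CHR letters (red diamonds) and CCAAT boxes (grey squares) in the RefSeq promoter windows of 32 members, by distance of the match's first base from the transcription start in bases, with genes ordered by their log2 fold change from day 7 to day 14. For 23 genes a red mark lies within 50 bases of the start, from Plk1 near the top to Prc1 near the bottom. Pttg1 on the last line, whose own 5′ end was not searched, has no mark. Ccnb1, Birc5, Cenpe, Mad2l1, Nuf2 and Nusap1, which fell, have no red mark either.

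The chromosomal passenger complex, which corrects wrong attachments and later directs cytokinesis, consists of the kinase Aurkb, the scaffold Incenp, survivin (Birc5) and borealin (Cdca8). All 4 genes fell in the second week, to unequal degrees. Aurkb was at 42.9, 43.9 and 45.1 CPM on day 1, 37.2, 42.5 and 36.4 on day 7 and 18.8, 16.2 and 19.1 on day 14, with the day 14 libraries lowest (-1.10 ± 0.08, adjusted p = 1.01e-07). All its day 7 libraries were below day 1, although the first step missed the threshold (-0.18 ± 0.07, adjusted p = 0.0556). That step was called as lower in 7 alternatives, among them DESeq2, limma-voom and library totals. Incenp (chromosome 19, 9872295 to 9899489) was at 93.05, 101 and 101 CPM on day 1, 79.5, 92.2 and 81.4 on day 7 and 61.7, 60.9 and 65.6 on day 14. Its first step (-0.22 ± 0.06, adjusted p = 0.0096) and second step (-0.43 ± 0.06, adjusted p = 5.54e-05) were both small, and the libraries of the 3 days stood in separate ranges. Birc5 was at 40.8, 40.4 and 42.1 CPM on day 1, 30.9, 34.9 and 32.1 on day 7 and 19.8, 19.4 and 20.95 on day 14 and also fell in both steps without overlap (-0.33, adjusted p = 0.00055, and -0.71, adjusted p = 6.61e-07). Cdca8 fell in the second week (-0.93 ± 0.07), with an adjusted p of 0.555 in the first.

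All 4 spindle checkpoint genes fell in the second week. Bub1, a checkpoint kinase at kinetochores, was at 41.1, 36.9 and 39.8 CPM on day 1, 31.3, 35.1 and 32.7 on day 7 and 14.9, 12.7 and 14.05 on day 14. The ranges of the 3 days were separate, with a first step of -0.25 ± 0.07, adjusted p = 0.0116, and a second of -1.25 ± 0.07, adjusted p = 2.58e-08. The first did not hold when day 7 library 1 was left out. Ttk, the kinase that recruits the checkpoint proteins, had the smallest fall of the group, at 24.9, 25.3 and 26.4 CPM on day 1, 22.6, 29.04 and 24.7 on day 7 and 18.1, 17.4 and 17.6 on day 14 (-0.53 ± 0.08, adjusted p = 0.000126). Its day 14 libraries were all below those of days 1 and 7. The fold changes of Bub1b and Mad2l1, which encode parts of the inhibitor of Cdc20, were -0.98 and -1.13, and neither passed the test in the first week.

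All 6 kinetochore genes fell in the second week, with log2 fold changes from -1.30 to -0.92. Spc25, a subunit of the Ndc80 complex that holds the microtubule, was at 23.3, 24.1 and 22.96 CPM on day 1, 21.1, 23.3 and 24.6 on day 7 and 10.03, 8.65 and 9.39 on day 14 (-1.30 ± 0.08, adjusted p = 3.27e-08). Its partner subunits had fold changes of -1.12 (Ndc80) and -1.02 (Nuf2). Ndc80 was at 23.8, 24.4 and 25.7 CPM on day 1, 19.8, 21.2 and 21.1 on day 7 and 9.25, 9.11 and 10.2 on day 14, and it was also lower at day 7 than at day 1 (-0.25 ± 0.07, adjusted p = 0.00896). Cenpa, the histone H3 variant that marks centromeres, was at 44.2, 50.5 and 52.4 CPM on day 1, 44.8, 46.3 and 47.5 on day 7 and 27.1, 23.8 and 22.2 on day 14, with overlap between days 1 and 7 only. Cenpf, a large protein of the outer kinetochore, missed the threshold in the first week and had a fold change of -1.199 in the second. Cenpe, a kinetochore motor, was at 70.00, 72.2 and 80.5 CPM on day 1, 66.1, 68.6 and 64.99 on day 7 and 34.3, 33.2 and 36.9 on day 14. Its first step (-0.16 ± 0.06, adjusted p = 0.046) was not called in 7 of the 9 fits with a library left out, whereas its second (-0.94 ± 0.06, adjusted p = 6.58e-08) was called in each.

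Among the mitotic kinesins, 4 of 5 had fold changes of -0.94 to -1.38 on the log2 scale in the second week and Kif23 was apart. Kif2c, a depolymerase of microtubule ends, had the largest fall of all 40 genes, at 34.5, 36.7 and 38.9 CPM on day 1, 28.7, 35.8 and 35.01 on day 7 and 12.6, 12.8 and 12.7 on day 14 (-1.38 ± 0.08, adjusted p = 3.41e-08). Kif20a, a motor of the central spindle, was at 79.4, 86.2 and 82.2 CPM on day 1, 65.8, 70.3 and 67.1 on day 7 and 28.04, 26.2 and 28.1 on day 14, falling in the first week (-0.29 ± 0.05, adjusted p = 0.000476) and further in the second (-1.30 ± 0.05, adjusted p = 1.09e-09). Its exons overlap those of Cdc23 on the other strand, which fell by less in the second week (-0.59). Kif11, the motor that pushes spindle poles apart, was at 137, 132 and 136 CPM on day 1, 104, 127 and 114 on day 7 and 50.9, 57.9 and 62.7 on day 14. The X-linked chromokinesin gene Kif4 was at 53.8, 55.4 and 49.8 CPM on day 1, 43.1, 46.1 and 44.99 on day 7 and 23.1, 20.5 and 26.4 on day 14. No days overlapped for either gene and both fell in each step, but their first falls (-0.23 and -0.25, adjusted p = 0.0338 and 0.0203) were not called when day 1 library 4, day 1 library 5, day 7 library 1 or day 7 library 3 was left out, and that of Kif11 also not without library 6 of day 1.

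Kif23 encodes the motor of centralspindlin, the complex that bundles the midzone and recruits Ect2 (chromosome 9, 61917277 to 61946810). It was at 79.7, 80.3 and 85.4 CPM on day 1, 85.2, 95.8 and 91.6 on day 7 and 75.4, 75.5 and 85.4 on day 14. The highest day 14 library lay just above the lowest day 7 library, so these days overlapped, and the fall was small (-0.21 ± 0.06, adjusted p = 0.00938). The first step missed the threshold (0.15 ± 0.06, adjusted p = 0.0544) but was called as higher in 5 alternatives, among them limma-voom and the fit without day 7 library 1. Day 14 against day 1 missed the threshold (-0.05 ± 0.06, adjusted p = 0.43) but was called as lower with library totals as scaling (-0.33). Racgap1, the other subunit of centralspindlin, went from 126 ± 8.04 to 56.5 ± 3.47 CPM, a fold change of -1.16 ± 0.06, adjusted p = 7.3e-09. Whether the fold changes of these partner genes differ was not tested.

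Spindle assembly genes fell in the second week in all 5 cases and passed the test in the first in none. Aurka, the kinase of spindle poles, was at 26.7, 30.5 and 29.9 CPM on day 1, 22.9, 29.97 and 26.1 on day 7 and 11.7, 10.3 and 10.1 on day 14 (-1.30 ± 0.10, adjusted p = 2.92e-07). Dlgap5, which binds kinetochore microtubules, had the smallest change of the 5, at 33.01, 33.5 and 36.5 CPM on day 1, 29.1, 31.6 and 31.9 on day 7 and 15.8, 15.6 and 17.1 on day 14 (-0.93 ± 0.07, adjusted p = 1.28e-07). Days 1 and 7 did not overlap for Dlgap5, although its first step missed the threshold (adjusted p = 0.0647). Tpx2, the activator of Aurka, had a fold change of -1.13, Hmmr one of -1.03 and Nusap1 one of -1.29. Hmmr and Nusap1, which bind microtubules, had their highest values in day 7 libraries and passed the test upwards in the first week when day 7 library 1 was left out. Tpx2 passed downwards in the first week when day 1 library 4 or day 7 library 2 was left out, and with RLE size factors or library totals. Dlgap5 did so with RLE size factors, library totals or limma-voom.

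Cytokinesis genes had the highest ratio of day 14 to day 7 of the 9 role groups. Summed over Anln, Ect2 and Prc1, the level was 306 ± 5.85 CPM on day 1, 385 ± 28.5 on day 7 and 301 ± 12.1 on day 14. Anln, the scaffold anillin of the contractile ring (chromosome 9, 22331214 to 22389211), was at 119, 123 and 120.5 CPM on day 1, 158, 191 and 178 on day 7 and 131, 126 and 144 on day 14. It rose in the first week (0.54 ± 0.07, adjusted p = 4.68e-05) and fell back in the second (-0.40 ± 0.07, adjusted p = 0.000299), and day 14 against day 1 missed the threshold (0.15 ± 0.07, adjusted p = 0.0782, and -0.13 with library totals as scaling), although the libraries of these days did not overlap and the call was made when day 7 library 1 or all of day 7 was left out. Prc1, the protein that bundles antiparallel microtubules of the midzone (chromosome 7, 80294445 to 80316259), was at 107, 109 and 114 CPM on day 1, 121, 134 and 125 on day 7 and 126, 118 and 119 on day 14. It rose in the first week (0.21 ± 0.05, adjusted p = 0.00445), except with library totals as scaling, and its second step missed the threshold (-0.07 ± 0.05, adjusted p = 0.234), although library totals called it as lower (-0.25). Day 14 was higher than day 1 (0.14 ± 0.05, adjusted p = 0.0256) with TMM factors and lower with library totals (-0.13). That call was also not made when day 1 library 4, day 1 library 5, day 7 library 3 or day 14 library 4 was left out. Rccd1, whose exons overlap those of Prc1 on the other strand, went from 17.5 to 12.4 and 11.8 CPM. Ect2, the exchange factor that activates RhoA at the midzone, was at 75.3, 73.04 and 77.6 CPM on day 1, 77.4, 87.8 and 81.4 on day 7 and 49.4, 43.6 and 46.3 on day 14 (-0.82 ± 0.06, adjusted p = 1.54e-07). Its first step missed the threshold (0.13 ± 0.06, adjusted p = 0.0951) and was called as higher only when day 7 library 1 was left out.

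The 4 genes of anaphase and mitotic exit moved in different ways. Cdc20 and Ube2c, an activator and the ubiquitin-conjugating enzyme of the anaphase-promoting complex, fell in the second week. Ube2c was at 48.3, 54.3 and 56.9 CPM on day 1, 45.3, 54.6 and 49.9 on day 7 and 25.8, 26.98 and 23.9 on day 14 (-0.97 ± 0.08, adjusted p = 5.55e-07), and Cdc20 had a smaller fold change (-0.61 ± 0.05, adjusted p = 5.53e-07). The exons of Cdc20 overlap those of Elovl1 on the other strand, which rose in the same step (0.53 log2), and the strand setting of the counts is not given in the sources used here. Espl1, separase, the protease that cuts cohesin, was at 55.3, 60.2 and 60.2 CPM on day 1, 47.95, 49.4 and 47.2 on day 7 and 40.5, 39.00 and 40.02 on day 14. No libraries of different days overlapped, and the gene fell in both steps (-0.28 ± 0.05, adjusted p = 0.000399, and -0.27 ± 0.05, adjusted p = 0.000285).

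Pttg1, securin, the inhibitor that keeps separase inactive until anaphase (chromosome 11, 43420244 to 43427463), was the one member that rose in the second week. It was at 10.4, 9.75 and 10.9 CPM on day 1, 13.99, 12.3 and 13.8 on day 7 and 22.4, 24.02 and 22.1 on day 14. The ranges of the 3 days were separate and in order of age, with a first step of 0.37 ± 0.08, adjusted p = 0.00174 and a second of 0.77 ± 0.08, adjusted p = 2.2e-06. The rise from day 1 to day 14 (1.14 ± 0.08, adjusted p = 3.78e-08) passed the test under all alternatives tried, a test against a fold of 1.5 included. Whether its second step exceeded its first depended on the libraries used (difference 0.41 ± 0.13, adjusted p = 0.0225), since it was not called when day 1 library 6, day 7 library 2 or day 14 library 5 was left out, nor with library totals as scaling. Espl1, its binding partner, fell in the same steps.

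A further 149 cell cycle genes in 8 lists were set beside the 40, and most of those of kinetochore and spindle also fell in the second week. For each list the background was 35.1% of all tested genes lower and 32.5% higher. Of 32 further kinetochore and checkpoint genes 28 fell and 1 rose (median log2 fold change -0.90). Those with the largest falls were Cenpn (-1.52), a reader of Cenpa nucleosomes, and Nsl1 (-1.502), a subunit of the Mis12 complex, and the rise was that of Zwint (0.44), a partner of Knl1. Among 32 further kinesin, spindle and cytokinesis genes 28 fell and 1 rose (median -0.76), with Kif15 (-1.41), a spindle motor, and Racgap1 at one end and Haus3 (0.83), an augmin subunit, at the other.

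The lists of the anaphase-promoting complex, of condensin and cohesin and of centrioles had medians nearer to 0. So had the kinase and the DREAM lists given below. The backgrounds were again 35.1% lower and 32.5% higher. Of 17 genes of the anaphase-promoting complex 14 fell and 2 rose (median -0.34). The rises were those of Anapc2 (0.34) and Ube2s (0.33), and the largest falls those of Fbxo5 (-1.09), an inhibitor of the complex, and Anapc15 (-0.67). Of 19 condensin and cohesin genes 14 fell and 2 rose (median -0.29). Ncaph (-1.14), a condensin subunit, and Esco2 (-1.12), a cohesin acetyltransferase, had the largest falls, while the cohesin loader Nipbl (0.43) and the unloader Wapl (0.22) rose. Of 12 centriole and centrosome genes 8 fell and 0 rose (median -0.27), Sass6 (-1.03) and Nek2 (-0.83) by the most.

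Of 14 further kinase, phosphatase and cyclin genes of G2 and mitosis 9 fell and 4 rose (median -0.30). The backgrounds among all genes were 35.1% lower and 32.5% higher. Pbk (-1.36) and Melk (-1.29), kinases of dividing cells, had the largest falls. Wee1, the kinase that holds Cdk1 inactive before mitosis, rose from 59.9 ± 2.14 to 234 ± 15.3 CPM (1.97 ± 0.09, adjusted p = 2.5e-08), after 47.3 ± 6.56 CPM at day 1, and Cks2, a binding partner of Cdk1, rose by 0.57. Among 12 genes of the DREAM and MuvB complexes 5 fell and 3 rose (median -0.08), at the same backgrounds. Mybl2, which encodes B-Myb, had the largest fall (-1.23), followed by Rbl1 (-0.87), while Lin37 (0.50) and E2f5 (0.42) rose.

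Of 9 tested CDK inhibitor and quiescence genes, which hold cells out of the cycle, 7 rose and 0 fell in the second week (median 1.14, backgrounds 32.5% and 35.1%). The other 2, Btg2 (-0.36 ± 0.18, adjusted p = 0.125) and Cdkn2c (-0.13 ± 0.08, adjusted p = 0.161), missed the threshold, although their day 14 libraries all lay below those of day 7. Cdkn1b, which encodes the inhibitor p27, went from 60.1 ± 3.56 CPM on day 1 to 82.3 ± 3.04 on day 7 and 222 ± 12.4 at day 14, with rises in both steps (0.45 ± 0.06, adjusted p = 3.72e-05, and 1.43 ± 0.06, adjusted p = 1.24e-09). Cdkn1c, for p57, was at 9.95 ± 1.497 CPM on day 1, 3.68 ± 0.447 on day 7 and 10.4 ± 1.42 on day 14, so that it fell first and then rose (adjusted p = 5.74e-06 and 1.89e-06).

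**Figure D4:**
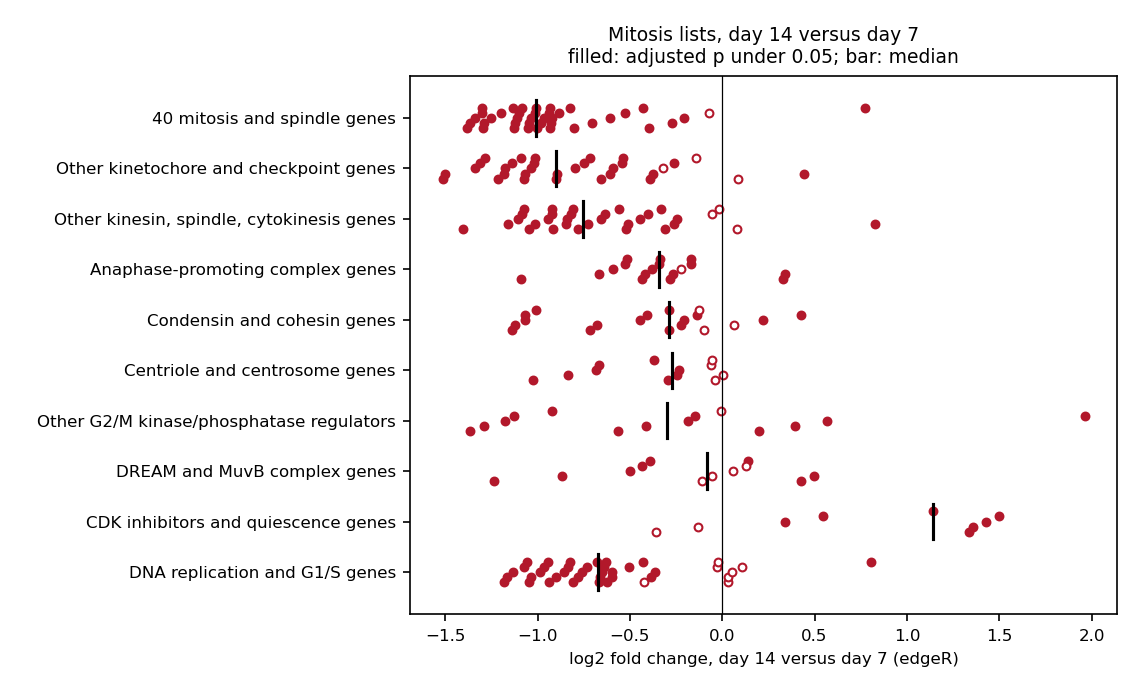
Log2 fold change from day 7 to day 14 (edgeR) of each tested gene in the 40-gene group, in 8 further lists of mitosis genes and in the G1/S list. Filled points passed an adjusted p under 0.05 and black bars are medians, which run from -1.01 in the 40 genes to 1.14 in the CDK inhibitor and quiescence list.

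DNA replication and G1/S genes are the nearest neighbours of the mitosis genes in the cell cycle. In the second week 32 of 40 fell and 1, the cyclin D gene Ccnd1 (0.80), rose (median -0.67, beside -1.01 for the mitosis genes). The backgrounds among all tested genes were 35.1% lower and 32.5% higher. Clspn (-1.18), a replication checkpoint protein, and Tk1 (-1.17), thymidine kinase, had the largest falls. The ratio of the summed mitosis level to the summed G1/S level was 1.13 ± 0.0765 at day 1, 1.19 ± 0.0783 at day 7 and 0.955 ± 0.0370 at day 14, and each day 14 library was below all others. No test was made of a sum over chosen genes.

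Markers of several cell types also differed between the days. The basal keratins Krt5 and Krt14 together were at 34743 ± 970.2 CPM on day 1, 32937 ± 839 on day 7 and 22583 ± 1307 on day 14. Per summed Krt5 and Krt14, the mitosis level was 0.0913 ± 0.000495 at day 1, 0.0936 ± 0.00452 at day 7 and 0.0766 ± 0.00372 at day 14. Each day 14 library was again below all others. The 9 basal markers summed fell by less than these keratins, to 77.2% of day 7 at day 14 against 68.6%. Of the 9 basal markers 4 fell and 3 rose in the second week, beside 35.1% lower and 32.5% higher among all genes. The falls other than Krt5 and Krt14 were those of Krt15 (-0.35) and the integrin subunit Itgb1 (-0.20), and the rises those of the integrin subunits Itga3 (0.34) and Itga6 (0.25) and the transcription factor Trp63 (0.17). Of 9 suprabasal markers 6 rose and 1, Krt1, fell, at the same backgrounds, and their sum was 12868 to 13796 CPM at day 7 and 12358 to 13604 at day 14. All 8 melanocyte markers fell in both steps (background 10.2%). Their sum was 394 to 421 CPM on day 1, 108 to 129 on day 7 and 5.07 to 10.03 on day 14. Hair matrix markers, a list that is not limited to genes of dividing cells, summed to 146 to 156, 39.2 to 61.3 and 54.98 to 80.9 CPM at the 3 days. Of these 9 markers 5 were lower and 3 higher in the first week (backgrounds 24.0% and 25.5%). In the second week 0 were lower and 2 higher, Foxn1 (from 11.8 to 30.1 CPM) and Msx2 (from 6.54 to 10.2 CPM). Fibroblast markers summed to 122 to 225, 17.3 to 61.6 and 16.8 to 37.2 CPM. The part of these cell types in the changes of the mitosis genes was not tested.

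**Figure D5:**
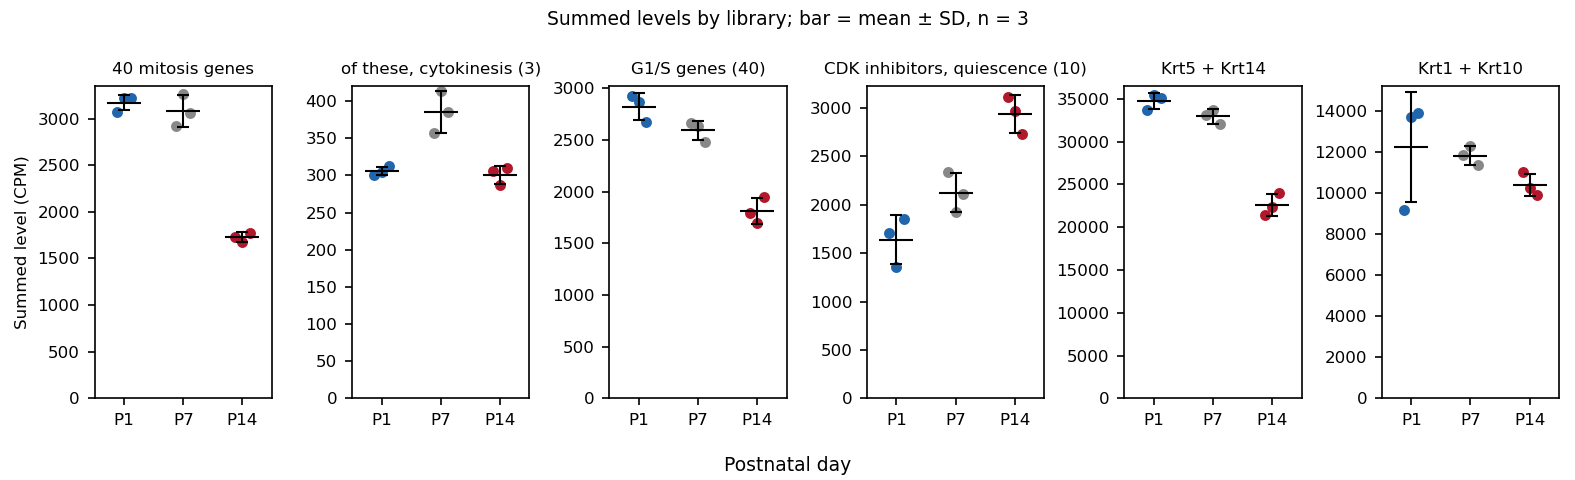
Summed level in CPM of 6 gene sets in each of the 9 libraries by postnatal day, with mean ± SD (n = 3) as bars and each axis starting at 0. The 40 mitosis genes are level from day 1 to day 7 and lower at day 14 in each library, the 3 cytokinesis genes peak at day 7, and day 1 library 4 is the low point of Krt1 and Krt10.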

How the data were processed

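RNA-seq read counts per gene were analysed for 9 libraries, 3 each from postnatal days 1, 7 and 14. The mm10 build, the aligner HISAT2 2.1.0, StringTie 1.3.4d, Trimmomatic and bcl2fastq 2.20.0 are named in the submitters' processing notes. How reads were assigned to genes, and with which strand setting and annotation, is not given in the sources used here, so reads of overlapping genes on opposite strands may be shared. The deposited values used are headed as read counts and are whole numbers, and they were taken as not normalised by the authors. Another 18 columns of normalised values were not used. Columns were assigned to days by header, those headed D0 being taken as day 1, and libraries are named by the header's number, which cannot be matched to sample titles.

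Counts were scaled with TMM factors, filtered with filterByExpr and fitted with edgeR 4.0.16 (R 4.3.3, robust quasi-likelihood F test, 1 model of day over all libraries). P-values were adjusted by the Benjamini-Hochberg method over 14507 genes, and genes with an adjusted p under 0.05 were called, whatever the size of the fold. Adjusted p-values in the text come from this fit, fold changes are log2 ± SE and levels are CPM, as mean ± SD of 3 libraries. The fitting code was tried on simulated counts in which few genes changed. Many genes changed in these data, so that trial does not bear on the scaling used here. DESeq2 1.42.0, limma 3.58.1 (voom), other scalings, filters and thresholds, 2-day fits, a replicate block and leaving out each library were the alternatives. Coordinates are those of mm10, and exon overlaps come from GENCODE M21.

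The 40 genes and all lists were chosen with earlier results of these data known. Values in each library are given for Mki67, Top2a, Cdk1 and Ccnb1, for the members of each role with the most and least negative change from day 7 to day 14, and for members changed from day 1 to day 7. From each other list up to 2 rises and 2 falls of largest size were named. Genes overlapping a member were named for their position, and Xist, Ddx3y and Ptprc as checks.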

Additional observations from a re-analysis of the deposited data

How the results depend on the processing

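The counts from day 7 to day 14 (38 lower, 1 higher) were the same in all 9 fits with a library left out, against 32 lower in a test against a fold of 1.5 and 39 with library totals. Of all 14507 genes, 1286 were lower against a fold of 1.5 and 6653 with library totals. With a library left out, first-week falls ranged from 6 to 14 and rises from 3 to 7, rises from day 1 to day 14 from 1 to 3, and members whose second step was the more positive from 0 to 1. The lowest count of first-week falls, 6, and the highest of rises, 7, came without day 7 library 1, and 7 falls were left without day 1 library 5 or day 7 library 3. Falls among all genes were 3103 of 14791, 3091 of 14747 and 2877 of 14820 in these fits, in the same order. Against a fold of 1.5, no member changed in the first week in either direction (0 and 0), 1 was higher on day 14 than on day 1, and the steps differed for 24 members downwards and 0 upwards. Among all 14507 genes that test gave 1013 lower and 775 higher in the first week and 2619 higher on day 14 than on day 1. For the difference of the steps it gave 960 downwards and 1337 upwards. Library totals moved the median of all genes from -0.03 to -0.21 in the second week, with 3563 genes higher and 6653 lower in place of 4713 and 5095. With them 18 members fell and 2 rose in the first week, 1 member was higher on day 14 than on day 1, Prc1 reversed to -0.13 there, and 0 members had the more positive second step. Among all 14507 genes, library totals gave 4789 lower and 2658 higher in the first week. They gave 3632 genes higher on day 14 than on day 1 and 3103 with the more positive second step. On that scale the summed level was 90.9% (day 7 of day 1), 49.6% (day 14 of day 7) and 45.1% (day 14 of day 1). Without a low-count filter 1 member was higher on day 14 than on day 1, beside 5091 of 18012 genes. The cause of these differences was not tested.

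With the header number as a replicate block for days 1 and 14, 1 member was higher, Prc1 being lost, and 36 were lower. Among the 14306 genes tested in that fit, 4888 were higher and 5282 lower. Deviations of same-numbered libraries had correlations of 0.014, 0.010 and 0.104, and those of other pairs ran from -0.065 to 0.049. With 3 libraries a day, these values cannot tell whether the numbers pair the samples. No paired analysis was possible because the day 7 columns carry other numbers, for comparisons with day 7. Levels in the authors' normalised units are not reported, since 1 measure per library was used. Counts of the members ran from 402 upwards, and 3 libraries a day limit what small changes can be seen.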
